A study of Homo sapiens with 8 samples.

Results

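The genes described here are 39 NRF2 target and antioxidant genes, a list set by gene name: NRF2 and its partners, the thioredoxin and glutathione systems, the enzymes that supply NADPH, the aldo-keto reductases and other detoxifying enzymes. All 39 were found among the 21123 genes of the expression table and all 39 passed the filter on low values, so none is missing from the tests. Their RNA was measured by sequencing in cells labelled 143B, a human osteosarcoma line, in 4 groups of 2 libraries labelled as biological replicates. The groups were shZDHHC8 cells with cisplatin, shZDHHC8 cells with vehicle, shControl cells with cisplatin and shControl cells with vehicle. All cells stably carried an shRNA, either against ZDHHC8 or a non-targeting control, and were treated for 48 h with cisplatin, a platinum drug that crosslinks DNA, or with PBS as vehicle. The labels give no drug dose, and they say neither how many hairpins against ZDHHC8 were used nor whether the cells were cloned, so an effect of the hairpin or of the cell population cannot be told apart from that of ZDHHC8 itself. In bulk RNA, fewer cells carrying a transcript and less of it per cell cannot be told apart.

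NRF2, the transcription factor encoded by NFE2L2, is held in check by KEAP1, which delivers it for degradation. Electrophiles and oxidants modify KEAP1, NRF2 then accumulates, pairs with a small MAF protein and binds antioxidant response elements in its target genes, so its activity is controlled mainly at the level of the protein. Its targets make and recycle glutathione and thioredoxin, supply the NADPH that both systems consume, and reduce quinones and carbonyls. In tumour cells high NRF2 activity is known to accompany resistance to platinum drugs, which glutathione can bind.

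The core of the antioxidant response element was searched as TGACNNNGC, or GCNNNGTCA on the other strand, in windows of 300 bases from 250 before to 50 after the start of each gene (RefSeq, GRCh38.p14). Windows were given for 33 of the 39 genes, and 6 of them held a match (18.2%), against 15.4% of the windows of the genes tested and 13.6% of all windows. The 6 genes were TXNRD1, GCLM, GSTP1, PGD, ME1 and CBR1, and 4 of the windows are printed because their genes differ in their response to the knockdown: TXNRD1, GCLM and ME1 rose in shZDHHC8 cells with vehicle and GSTP1 did not. PGD (log2 change 0.21) and CBR1 (0.31) also rose there, and their windows are not printed. The other 27 windows held no match. Among them were those of AKR1C1, AKR1C2, AKR1C3 and NQO1, which rose there too, and of TKT and CAT, which were not called. Sequence outside the windows was not searched. The calls of GCLM and ME1 ended under some alternatives given below. Capitals mark the matches. The first base of each match lay at positions -99 and -8 from the start in TXNRD1 (chr12:104215529-104215828, plus strand), -34 in GCLM (chr1:93909381-93909680, minus strand), -137 and 11 in ME1 (chr6:83431002-83431301, minus strand) and -66 in GSTP1 (chr11:67583562-67583861, plus strand). A match is a description of these letters and not a tested site.
TXNRD1: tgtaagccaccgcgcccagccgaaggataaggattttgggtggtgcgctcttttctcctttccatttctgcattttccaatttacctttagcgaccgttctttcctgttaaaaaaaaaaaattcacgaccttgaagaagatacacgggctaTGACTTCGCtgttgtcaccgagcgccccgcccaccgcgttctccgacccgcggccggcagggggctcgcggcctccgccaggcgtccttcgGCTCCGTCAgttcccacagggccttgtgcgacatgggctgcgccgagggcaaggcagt
GCLM: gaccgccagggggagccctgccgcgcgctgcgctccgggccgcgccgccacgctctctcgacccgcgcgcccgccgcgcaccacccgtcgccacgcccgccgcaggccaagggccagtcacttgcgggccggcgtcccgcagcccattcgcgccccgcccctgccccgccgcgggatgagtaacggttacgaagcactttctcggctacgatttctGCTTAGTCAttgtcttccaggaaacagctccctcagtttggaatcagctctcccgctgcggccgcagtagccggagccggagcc
ME1: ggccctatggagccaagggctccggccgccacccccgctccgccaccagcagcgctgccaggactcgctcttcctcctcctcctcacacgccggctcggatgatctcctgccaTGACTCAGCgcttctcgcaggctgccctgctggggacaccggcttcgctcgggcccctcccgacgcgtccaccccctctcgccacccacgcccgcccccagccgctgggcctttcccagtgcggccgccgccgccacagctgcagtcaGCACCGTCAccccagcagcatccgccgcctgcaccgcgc
GSTP1: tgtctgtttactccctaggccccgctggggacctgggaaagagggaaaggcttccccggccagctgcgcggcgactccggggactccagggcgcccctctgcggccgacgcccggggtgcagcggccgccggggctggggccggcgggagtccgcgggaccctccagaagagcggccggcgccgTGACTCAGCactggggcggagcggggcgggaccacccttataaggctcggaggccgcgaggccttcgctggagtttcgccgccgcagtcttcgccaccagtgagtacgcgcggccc

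Values are FPKM, a fragment count scaled to transcript length and library size. The table does not name its unit, so this is inferred from the values, and the depth behind them is unknown. Column totals were 361060 to 391016, and log2 values of the 13495 tested genes correlated with r = 0.995 to 0.996 for libraries of the same group, against 0.939 to 0.978 for libraries of different groups. ZDHHC8 itself was at 23.5 and 22.3 FPKM in shZDHHC8 cells with cisplatin and 14.3 and 9.81 with vehicle, against 32.3 and 32.8 in shControl cells with cisplatin and 23.7 and 23.1 with vehicle. Every shZDHHC8 library lay below the shControl libraries of the same treatment, by a log2 change of -0.49 under cisplatin and -0.92 in vehicle (limma adjusted p = 0.0102 and 0.000472). ZDHHC8 RNA was still present, and in shZDHHC8 cells with cisplatin it was near the level of shControl cells with vehicle. With cisplatin it rose by 0.89 in shZDHHC8 and by 0.46 in shControl cells (limma adjusted p = 0.000717 and 0.0136). Of 8 osteoblast markers in the table, 5 were at 1 FPKM or more in every library, RUNX2, SPP1, SPARC and COL1A1 among them, and BGLAP, IBSP and COL1A2 below 1 in every library. Of 12 epithelial markers in the table, 7 were at 1 FPKM or more in every library: EPCAM, KRT5, KRT8, KRT17, KRT18, KRT19 and SFN. The keratins KRT8 and KRT18 were abundant, while CDH1 and ESRP1 were below 1 FPKM in every library. The summed level of 12 epithelial markers was 735 to 761 FPKM in shZDHHC8 cells with cisplatin, 820.0 to 830 in shZDHHC8 cells with vehicle, 936 to 952 in shControl cells with cisplatin and 1133 to 1143 in shControl cells with vehicle, so it moved with both factors. That of the 8 osteoblast markers was 223 to 226 FPKM, 284 to 299, 74.4 to 81.2 and 165 to 172 in the same order of groups, and that of 7 mesenchymal markers 1436 to 1455 FPKM, 2250 to 2464, 1314 to 1323 and 1887 to 1937. In both of these sums, as in that of the 39 genes, each vehicle group was above its cisplatin group. Each shZDHHC8 group was above its shControl group. The osteoblast sum was mostly SPP1, at group means of 197, 268, 60.0 and 142 FPKM in the same order. The mesenchymal sum was mostly VIM, at 1270, 2010, 1200 and 1760 FPKM. The epithelial sum was mostly KRT8, at 420, 445, 552 and 649 FPKM. Single markers did not all share the order of their sum. With the knockdown in vehicle SPP1 was higher (0.91), while COL1A1 (-0.85) and RUNX2 (-0.31) were lower. ZEB1 rose with cisplatin in shControl cells (0.52), where VIM fell (-0.55). Against the epithelial sum, SFN was higher with the knockdown (0.49 under cisplatin and 0.28 in vehicle). KRT17 (0.25) and KRT18 (0.28) rose with cisplatin in shControl cells, where KRT8 fell (-0.23). The part of such differences in the results below was not tested.

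Knockdown of ZDHHC8 went with higher levels of most of these genes, with or without the drug. In vehicle, 28 of the 39 were higher in shZDHHC8 than in shControl cells and 2 were lower (limma adjusted p below 0.05), where 51.7% of all tested genes were called, 26.7% higher and 25.0% lower. The median log2 change, a difference of mean log2(FPKM + 1), was 0.31, against 0.02 over all tested genes. Under cisplatin the counts were again 28 higher and 2 lower, where 61.4% of all genes were called, 33.8% higher and 27.6% lower, with a median of 0.47 against 0.04. The 39 genes were chosen with earlier results of these data known. All tested genes were not matched to them in level. Here and below, counts set against all tested genes are therefore given as a description. The 2 comparisons share no library, but both set shZDHHC8 against shControl cells and use a spread estimated over all 8 libraries. In both, 24 genes were higher, 85.7% of the 28 in each. The share of all tested genes higher in both was not counted, so this overlap is given as a description. MAFK, SQSTM1, TXN and SRXN1 were called higher in vehicle alone, and PRDX2, AKR1B1, CAT and SOD1 under cisplatin alone. Of these, SRXN1 under cisplatin (0.13, limma adjusted p = 0.051) and PRDX2 in vehicle (0.13, limma adjusted p = 0.0735) narrowly missed the threshold. Scaling the libraries to a common total or by median of ratios turned the counts under cisplatin to 27 higher and 7 lower, adding MAFK, SQSTM1, TXN, GSTP1 and GSTM3 to the lower ones, with 27.6% of all genes higher and 34.2% or 33.9% lower.

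**Figure D1:**
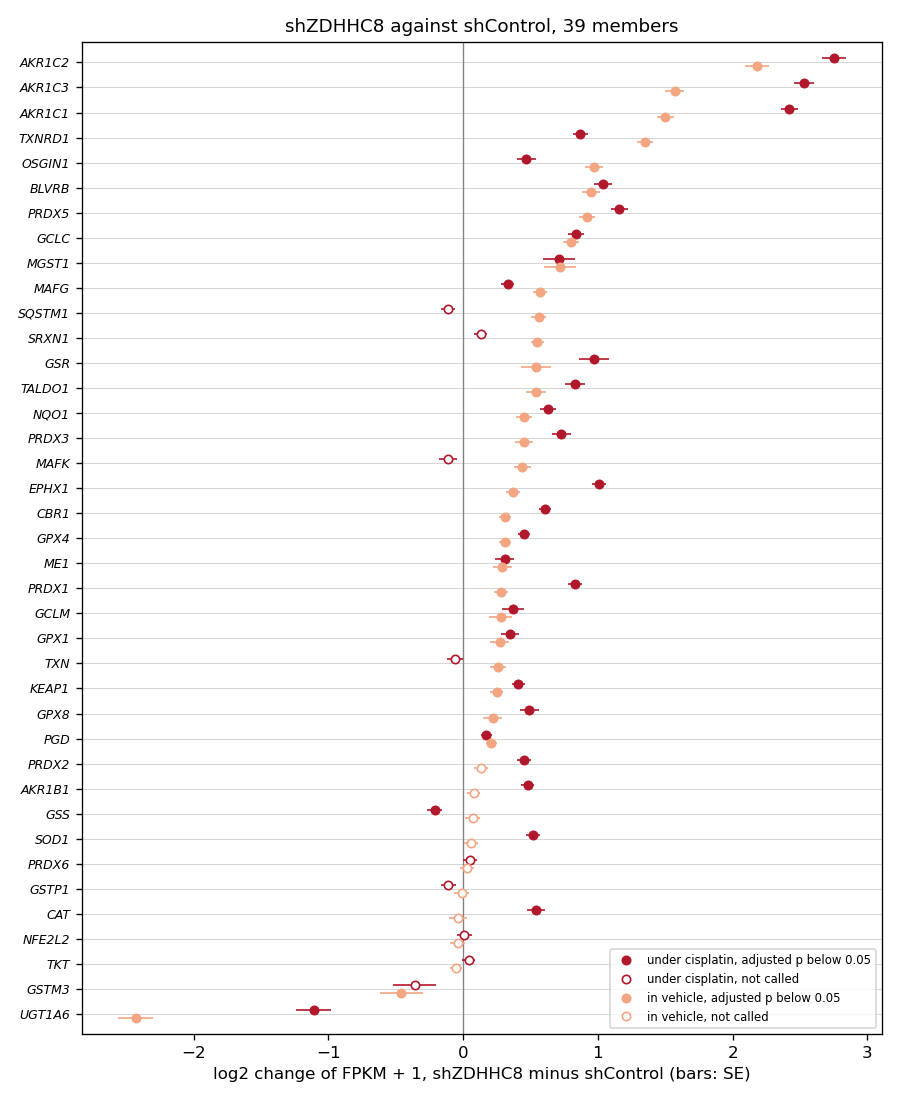
Log2 change of FPKM + 1 in shZDHHC8 minus shControl cells for each of the 39 genes, under cisplatin (dark red) and in vehicle (light red), with SE bars (2 libraries a group), filled where limma adjusted p was below 0.05. Most points lie to the right of 0, with AKR1C2 farthest at 2.75 under cisplatin and 2.18 in vehicle, and UGT1A6 lies far to the left at -1.11 and -2.43.

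With cisplatin more of these genes fell than rose. In shZDHHC8 cells 17 of the 39 genes fell with the drug and 6 rose, where 50.5% of all tested genes were called, 13.6% lower and 36.9% higher, and the median log2 change was -0.11 against 0.13 over all genes. In shControl cells 21 fell and 7 rose, where 62.2% of all genes were called, 25.4% lower and 36.8% higher, with a median of -0.19 against 0.07. Of the falls, 16 were shared, which is 94.1% of those in shZDHHC8 and 76.2% of those in shControl cells, and MAFG, MAFK and OSGIN1 rose in both, 3 of the 6 rises in shZDHHC8 and 3 of the 7 in shControl cells. The shares of all tested genes that fell in both or rose in both were not counted. Median-of-ratios scaling moved the median of all genes in shZDHHC8 cells to 0.005, so changes there stand about 0.13 lower relative to the middle of all genes. With it 20 of the 39 fell and 3 rose in shZDHHC8 cells, against 22.7% and 21.8% of all genes. The cisplatin comparison in shControl cells shares its vehicle libraries with the knockdown comparison in vehicle, so the opposite directions of the 2 are not independent of each other.

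**Figure D2:**
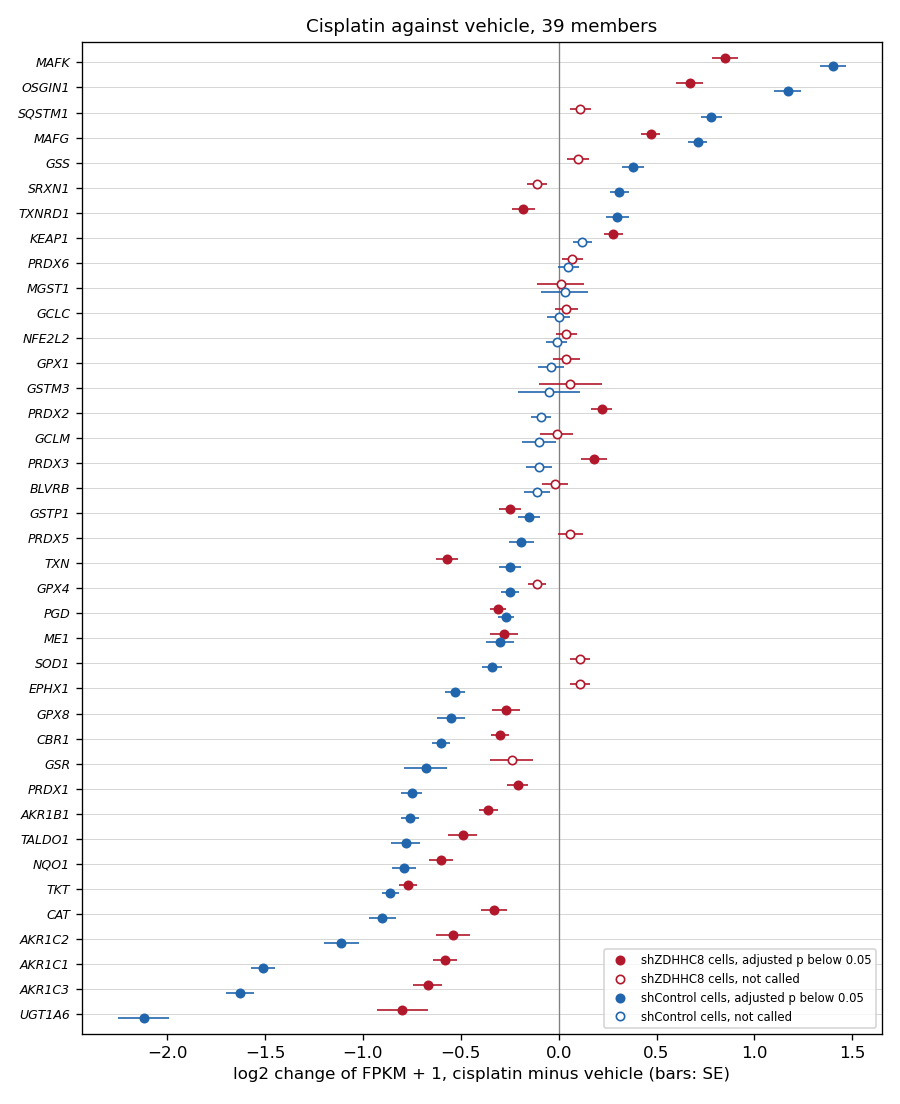
Log2 change of FPKM + 1 with cisplatin minus vehicle for each of the 39 genes, in shZDHHC8 cells (red) and shControl cells (blue), with SE bars (2 libraries a group), filled where limma adjusted p was below 0.05. The red points of the lowest genes, such as AKR1C3 at -0.67, sit closer to 0 than the blue ones, AKR1C3 at -1.63, and MAFK is the highest in both.

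NFE2L2 RNA did not differ detectably in any comparison. It was at 58.1 and 56.8 FPKM in shZDHHC8 cells with cisplatin and 53.2 and 58.4 with vehicle, against 58.2 and 56.1 in shControl cells with cisplatin and 57.3 and 57.6 with vehicle. The SE of a log2 change for this gene was 0.054, and the 4 libraries overlapped in each comparison. KEAP1, the adaptor that marks NRF2 for degradation, was at 52.7 and 55.6 FPKM in shZDHHC8 cells with cisplatin and 45.6 and 43.2 with vehicle, against 40.5 and 40.4 in shControl cells with cisplatin and 37.2 in both with vehicle. It was higher with the knockdown, by 0.41 under cisplatin (limma adjusted p = 0.000126) and by 0.25 in vehicle (limma adjusted p = 0.00285). With cisplatin it rose by 0.28 in shZDHHC8 cells, a call that ended when libraries were scaled by median of ratios (0.13, limma adjusted p = 0.0617).

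The small MAF genes encode the partners of NRF2, which also serve its repressor BACH1. MAFG was at 43.2 and 44.1 FPKM in shZDHHC8 cells with cisplatin and 32.0 and 30.5 with vehicle, against 34.5 and 34.5 in shControl cells with cisplatin and 20.2 and 21.3 with vehicle. It was higher with each factor alone, with cisplatin by 0.71 ± 0.05 (SE) in shControl cells (limma adjusted p = 5.41e-06) and with the knockdown by 0.57 ± 0.05 in vehicle (limma adjusted p = 3.17e-05), and the highest libraries carried both. MAFK was at 19.7 and 21.9 FPKM in shZDHHC8 cells with cisplatin and 11.3 and 10.9 with vehicle, against 21.8 and 23.2 in shControl cells with cisplatin and 7.77 and 8.07 with vehicle. It rose with cisplatin by 0.85 in shZDHHC8 cells and by 1.40 in shControl cells, the largest rise with the drug among the 39 in each, and under the drug the shRNA groups overlapped. SQSTM1 encodes p62, an autophagy receptor that binds KEAP1 and is itself an NRF2 target. It was at 273 and 271 FPKM in shZDHHC8 cells with cisplatin and 246 and 258 with vehicle, against 301 and 286 in shControl cells with cisplatin and 178 and 163 with vehicle, so the shControl libraries with vehicle stood below all others. OSGIN1, an oxidative stress induced growth inhibitor, had the same order of groups as MAFG, at 24.9 and 24.5 FPKM in shZDHHC8 cells with cisplatin and 15.3 and 15.0 with vehicle, against 17.8 and 17.2 in shControl cells with cisplatin and 6.68 and 7.79 with vehicle. Its log2 change with cisplatin was 0.67 ± 0.069 (SE) in shZDHHC8 cells and 1.17 ± 0.069 in shControl cells.

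**Figure D3:**
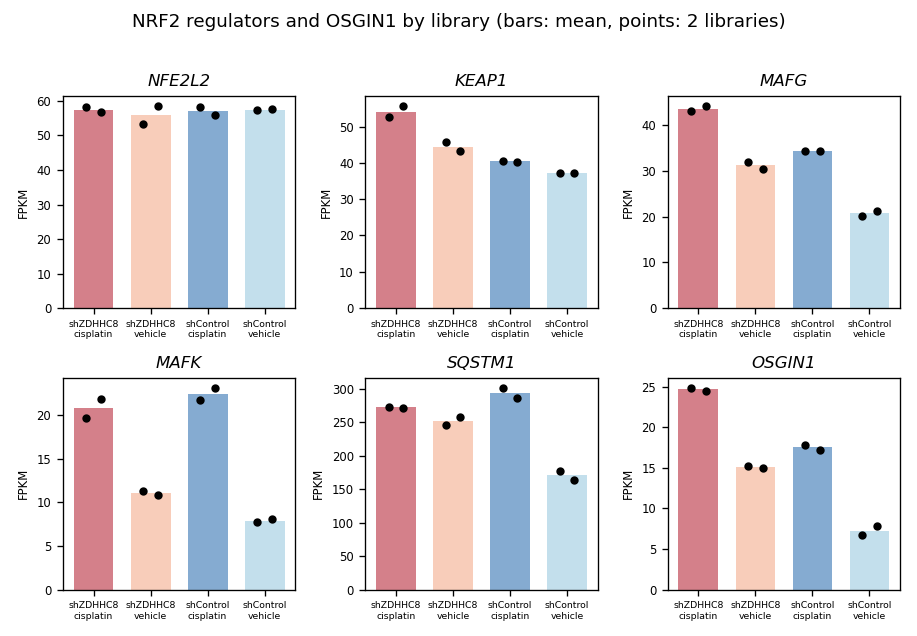
FPKM of NFE2L2, KEAP1, MAFG, MAFK, SQSTM1 and OSGIN1 in each library, with bars at the group mean of 2 libraries and points at the libraries. NFE2L2 is level at 53.2 to 58.4 FPKM in all 8 libraries, while MAFG and OSGIN1 are lowest in shControl cells with vehicle and highest in shZDHHC8 cells with cisplatin.

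The aldo-keto reductases of the AKR1C cluster on chromosome 10, which reduce ketosteroids, prostaglandins and other carbonyls, had the largest rises with the knockdown. AKR1C3 (ENSG00000196139, chr10:5035354-5107686 of hg38) was at 114 and 117 FPKM in shZDHHC8 cells with cisplatin and 178 and 189 with vehicle, against 20.8 and 17.6 in shControl cells with cisplatin and 61.4 and 61.3 with vehicle. No library of any group overlapped another group. With the knockdown it was higher by 2.53 ± 0.072 (SE) under cisplatin (limma adjusted p = 1.26e-07) and by 1.57 ± 0.072 in vehicle (limma adjusted p = 1.17e-06). AKR1C1 (ENSG00000187134, chr10:4963253-4983283) was at 34.1 in both libraries of shZDHHC8 cells with cisplatin and 50.04 and 52.78 with vehicle, against 5.72 and 5.36 in shControl cells with cisplatin and 18.4 and 16.7 with vehicle. AKR1C2 (ENSG00000151632, chr10:4987400-5018031) was at 18.9 in both libraries of shZDHHC8 cells with cisplatin and 25.7 and 30.2 with vehicle, against 1.77 and 2.14 in shControl cells with cisplatin and 5.42 and 5.29 with vehicle. The order of the groups was the same for the 3 genes: shZDHHC8 with vehicle, shZDHHC8 with cisplatin, shControl with vehicle and shControl with cisplatin, from high to low. With cisplatin AKR1C1, AKR1C2 and AKR1C3 had log2 changes of -0.58, -0.54 and -0.67 in shZDHHC8 cells and of -1.51, -1.11 and -1.63 in shControl cells.

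These genes are near copies of each other, and how the authors assigned reads that match several of them is not given in the sources used here, so the split between them is uncertain. Over 969 coding bases (GENCODE 29, GRCh38), AKR1C1 and AKR1C2 differed at 19 bases, an identity of 98.0%, and AKR1C3 was 91.4% identical to AKR1C1 and 91.0% to AKR1C2. Of all stretches of 100 bases in AKR1C2, 18.9% occur unaltered in AKR1C1. The stretch of coding bases 73 to 162 is printed because it holds 10 of the 19 differences, which are in capitals, and shows where reads of these genes can be told apart.
AKR1C1: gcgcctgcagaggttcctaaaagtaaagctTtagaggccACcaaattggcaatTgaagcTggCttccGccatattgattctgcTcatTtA
AKR1C2: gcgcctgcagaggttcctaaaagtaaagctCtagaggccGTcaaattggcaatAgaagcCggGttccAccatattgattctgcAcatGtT
The summed level of AKR1C1, AKR1C2 and AKR1C3 depends less on that split. It was 166.7 and 169.7 FPKM in shZDHHC8 cells with cisplatin and 254 and 272 with vehicle, against 28.3 and 25.1 in shControl cells with cisplatin and 85.2 and 83.3 with vehicle.

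The other carbonyl and quinone reductases differed less with the knockdown. NQO1, the quinone reductase most used as a readout of NRF2, averaged 83.3 ± 0.438 FPKM in shZDHHC8 cells with cisplatin and 127 ± 7.93 with vehicle, against 53.4 ± 3.26 in shControl cells with cisplatin and 92.7 ± 3.68 with vehicle (SD, n = 2 libraries each). It was higher with the knockdown, by 0.63 under cisplatin and 0.45 in vehicle, and fell by 0.60 and 0.79 with the drug in shZDHHC8 and shControl cells. The carbonyl reductase CBR1 averaged 152 ± 0.595 FPKM in shZDHHC8 cells with cisplatin and 188 ± 7.95 with vehicle, against 99.3 ± 0.525 in shControl cells with cisplatin and 151 ± 4.08 with vehicle. AKR1B1, aldose reductase, averaged 243 ± 10.5 and 312 ± 8.03 FPKM in shZDHHC8 cells with cisplatin and with vehicle, against 174 ± 6.84 and 296 ± 1.04 FPKM in shControl cells with cisplatin and with vehicle. Its knockdown difference passed under cisplatin alone (0.48, limma adjusted p = 4.75e-05, against 0.08, limma adjusted p = 0.2, in vehicle). BLVRB, biliverdin reductase B, was at 79.9 and 78.6 FPKM in shZDHHC8 cells with cisplatin and 86.2 and 74.7 with vehicle, against 37.7 and 38.6 in shControl cells with cisplatin and 40.5 and 41.9 with vehicle. BLVRB thus changed with the knockdown (1.04 under cisplatin and 0.95 in vehicle) and was not called for the drug in either background.

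UGT1A6, which attaches glucuronic acid to phenols and is known as an NRF2 and aryl hydrocarbon receptor target, was lower with the knockdown. It was at 0.843 and 0.965 FPKM in shZDHHC8 cells with cisplatin and 1.89 and 2.79 with vehicle, against 3.33 and 2.89 in shControl cells with cisplatin and 15.6 and 18.3 with vehicle. The shControl libraries with vehicle stood far above all others, and the knockdown log2 change was -1.11 ± 0.13 (SE) under cisplatin and -2.43 ± 0.13 in vehicle (limma adjusted p = 0.000133 and 3.02e-06). With a pseudocount of 0.1, which compresses low values less, the change under cisplatin was -1.68 and the cisplatin change in shZDHHC8 cells was -1.26 in place of -0.80. The UGT1A genes share their last exons, so their reads are hard to assign. The overlapping UGT1A9, UGT1A1, UGT1A7, UGT1A3 and UGT1A4 had at most 1.29 FPKM as a group mean, each highest in shControl cells with vehicle. EPHX1, microsomal epoxide hydrolase, was at 75.7 and 76.2 FPKM in shZDHHC8 cells with cisplatin and 71.8 and 69.0 with vehicle, against 38.3 and 36.3 in shControl cells with cisplatin and 55.6 and 52.7 with vehicle. With the knockdown it was higher by 1.01 under cisplatin and 0.37 in vehicle, and in shControl cells the drug came with a fall of 0.53 (limma adjusted p = 2.82e-05).

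**Figure D4:**
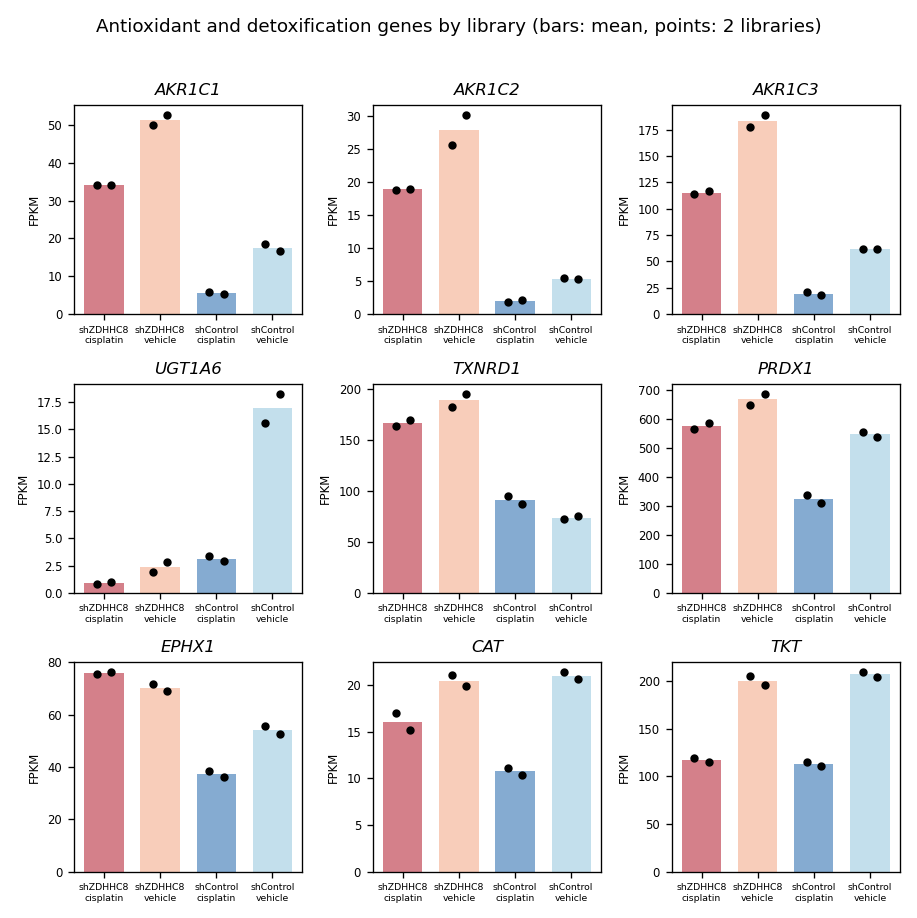
FPKM of 9 antioxidant and detoxification genes in each library, with bars at the group mean of 2 libraries and points at the libraries. AKR1C1, AKR1C2 and AKR1C3 share 1 order of groups, UGT1A6 is high in shControl cells with vehicle alone at 15.6 and 18.3 FPKM, and TKT is low in both cisplatin groups.

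In the thioredoxin system, TXNRD1, the selenoprotein that reduces thioredoxin with NADPH, was at 164 and 169 FPKM in shZDHHC8 cells with cisplatin and 182 and 196 with vehicle, against 94.7 and 86.7 in shControl cells with cisplatin and 72.1 and 75.0 with vehicle. With the knockdown it was higher by 0.87 ± 0.057 (SE) under cisplatin (limma adjusted p = 4.96e-06) and by 1.35 ± 0.057 in vehicle (limma adjusted p = 7.99e-07). With cisplatin it fell by 0.18 in shZDHHC8 cells and rose by 0.30 in shControl cells. The call in shZDHHC8 cells ended without shZDHHC8 vehicle replicate 2 (-0.13), without shZDHHC8 cisplatin replicate 1 (-0.16) or 2 (-0.20), and without an intensity trend (limma adjusted p = 0.0637). TXN, thioredoxin itself, averaged 123 ± 5.12 FPKM in shZDHHC8 cells with cisplatin and 183 ± 7.21 with vehicle, against 129 ± 6.49 in shControl cells with cisplatin and 153 ± 6.76 with vehicle. It was higher with the knockdown in vehicle (0.26) and fell with cisplatin by 0.57 and 0.25 in shZDHHC8 and shControl cells. SRXN1, sulfiredoxin, which repairs overoxidised peroxiredoxins, averaged 41.6 ± 0.228 and 45.1 ± 1.46 FPKM in shZDHHC8 cells with cisplatin and with vehicle, against 38.0 ± 0.239 and 30.4 ± 1.31 FPKM in shControl cells with cisplatin and with vehicle.

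The peroxiredoxins, which break down peroxides with electrons from thioredoxin, did not move as a block. PRDX1, the most abundant of the 39 in 5 of the 8 libraries, with GSTP1 above it in the other 3, was at 565 and 586 FPKM in shZDHHC8 cells with cisplatin and 646 and 687 with vehicle, against 337 and 311 in shControl cells with cisplatin and 555 and 538 with vehicle. In shControl cells it fell with the drug by 0.75 (limma adjusted p = 5.58e-06). In shZDHHC8 cells it fell by 0.21, a call that ended without shZDHHC8 vehicle replicate 2 (-0.17) or shZDHHC8 cisplatin replicate 1 (-0.18). PRDX5, found in mitochondria, peroxisomes and cytosol, was at 230.4 and 239.6 FPKM in shZDHHC8 cells with cisplatin and 223 and 228 with vehicle, against 106 and 103 in shControl cells with cisplatin and 127 and 111 with vehicle. Its knockdown differences were 1.16 under cisplatin and 0.92 in vehicle, while its cisplatin fall of 0.19 in shControl cells was -0.09 when shControl vehicle replicate 1 was left out and -0.21 or -0.17 when shControl cisplatin replicate 1 or 2 was, and was called in none of these. The mitochondrial PRDX3 averaged 130.0 ± 6.99 and 115 ± 9.34 FPKM in shZDHHC8 cells with cisplatin and with vehicle, against 77.9 ± 4.28 and 83.4 ± 1.77 FPKM in shControl cells with cisplatin and with vehicle. PRDX3 was higher with the knockdown by 0.73 under cisplatin and 0.45 in vehicle, and its rise of 0.18 with cisplatin in shZDHHC8 cells lay at the threshold (limma adjusted p = 0.049999) and was 0.10 and not called without shZDHHC8 vehicle replicate 1. Without either shControl vehicle replicate or either shZDHHC8 cisplatin replicate it was 0.13 to 0.24 and not called. PRDX2, mainly cytosolic, was higher with the knockdown under cisplatin (0.45), and its rise of 0.22 with the drug in shZDHHC8 cells was 0.08 under median of ratios and 0.17 without shZDHHC8 cisplatin replicate 1, not called in either. PRDX6, which uses glutathione rather than thioredoxin, had group means of 76.5 to 81.8 FPKM and passed in no comparison.

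Glutathione is made in successive steps by glutamate-cysteine ligase, with its catalytic subunit GCLC and its modifier GCLM, and by glutathione synthetase, GSS, and is recycled by glutathione reductase, GSR. GCLC was at 18.1 and 18.2 FPKM in shZDHHC8 cells with cisplatin and 17.4 and 18.0 with vehicle, against 10.2 and 9.31 in shControl cells with cisplatin and 9.59 and 9.82 with vehicle. It rose with the knockdown by 0.84 under cisplatin and 0.80 in vehicle (limma adjusted p = 7.09e-06 and 1.23e-05) and was not called for the drug in either background. GCLM was higher by 0.37 under cisplatin and 0.28 in vehicle; the vehicle call ended without shControl vehicle replicate 1 (0.25) or 2 (0.31), without shZDHHC8 vehicle replicate 2 (0.17) and after scaling to a common total (0.22). GSR was at 39.2 and 41.1 FPKM in shZDHHC8 cells with cisplatin and 53.6 and 42.3 with vehicle, against 18.9 and 21.1 in shControl cells with cisplatin and 30.5 and 34.6 with vehicle. Its knockdown differences were 0.97 and 0.54, and the spread between its vehicle libraries of shZDHHC8 cells was wide. GSS rose with cisplatin in shControl cells by 0.38 (limma adjusted p = 0.000352) and was lower with the knockdown under cisplatin by 0.21, a call that ended without shZDHHC8 cisplatin replicate 1 (-0.16).

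Among the enzymes that use glutathione, GPX4, which reduces lipid hydroperoxides and protects from ferroptosis, averaged 312 ± 1.22 FPKM in shZDHHC8 cells with cisplatin and 336 ± 16.5 with vehicle, against 228 ± 4.60 in shControl cells with cisplatin and 271 ± 5.18 with vehicle. GPX1, the cytosolic glutathione peroxidase, averaged 232 ± 2.28 and 225 ± 16.1 FPKM in shZDHHC8 cells with cisplatin and with vehicle, against 181 ± 4.20 and 187 ± 16.3 FPKM in shControl cells with cisplatin and with vehicle. Both were called higher with the knockdown under either treatment, as were MGST1, a microsomal transferase (0.71 under cisplatin and 0.72 in vehicle), and GPX8 of the endoplasmic reticulum (0.49 and 0.22). In vehicle the call of GPX1 ended without shControl vehicle replicate 2 (0.18) or shZDHHC8 vehicle replicate 1 (0.19). That of GPX8 ended without shControl vehicle replicate 1 (0.20) or 2 (0.23) and without shZDHHC8 vehicle replicate 2 (0.12). GPX8 also fell with cisplatin, by 0.27 in shZDHHC8 cells and by 0.55 in shControl cells, the call in shZDHHC8 cells ending without shZDHHC8 vehicle replicate 2 (-0.18) or shZDHHC8 cisplatin replicate 1 (-0.27). GSTP1, the abundant glutathione transferase, averaged 464 ± 12.6 and 553 ± 3.19 FPKM in shZDHHC8 cells with cisplatin and with vehicle, against 501 ± 29.6 and 556 ± 31.9 FPKM in shControl cells with cisplatin and with vehicle. It was called for the drug alone, by -0.25 in shZDHHC8 cells and -0.15 in shControl cells, and without shControl vehicle replicate 1 or shControl cisplatin replicate 2 the change in shControl cells was -0.09 and not called. Leaving out any of the 4 shZDHHC8 libraries also ended that call, at an unaltered -0.15 (limma adjusted p = 0.0564 to 0.058). GSTM3 was low, at 3.22 ± 0.289 and 3.06 ± 0.026 FPKM in shZDHHC8 cells with cisplatin and with vehicle, against 4.45 ± 1.08 and 4.64 ± 1.18 FPKM in shControl cells with cisplatin and with vehicle. Its lower level with the knockdown in vehicle (-0.46) was -0.24 without shControl vehicle replicate 1, and the call also ended without any of the 4 shZDHHC8 libraries (-0.47 to -0.45).

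NADPH for both systems comes from the pentose phosphate pathway and malic enzyme, and the 4 such genes of the list, TKT, TALDO1, PGD and ME1, fell with cisplatin in each background, where 13.6% of all tested genes fell in shZDHHC8 and 25.4% in shControl cells. Other genes of these routes, named after their values were seen, did not share this. The mitochondrial malic enzyme ME2 rose by 0.51 in shZDHHC8 and 0.55 in shControl cells (limma adjusted p = 0.00632 and 0.00302), RPE rose in shZDHHC8 cells (0.64), RPIA rose in shControl cells (0.26), and PGLS was called in neither (-0.13 and -0.09). TKT, transketolase, was at 119 and 115 FPKM in shZDHHC8 cells with cisplatin and 205 and 196 with vehicle, against 115 and 111 in shControl cells with cisplatin and 209 and 205 with vehicle. It fell with the drug by 0.77 ± 0.045 (SE) in shZDHHC8 and 0.86 ± 0.045 in shControl cells (limma adjusted p = 1.04e-05 and 1.14e-06), and the difference between the shRNA groups was not called under either treatment. After scaling to a common total, TKT was called lower with the knockdown in vehicle. TALDO1, transaldolase, was at 154 and 151 FPKM in shZDHHC8 cells with cisplatin and 210.5 and 219 with vehicle, against 93.3 and 78.6 in shControl cells with cisplatin and 143 and 152 with vehicle. It fell with the drug by 0.49 and 0.78 in shZDHHC8 and shControl cells, and was higher with the knockdown by 0.83 under cisplatin and 0.54 in vehicle. PGD, phosphogluconate dehydrogenase, fell by 0.31 and 0.27 in shZDHHC8 and shControl cells, and its knockdown difference under cisplatin (0.17) was 0.07 under either other scaling and no longer called. ME1, the cytosolic malic enzyme, fell by 0.28 in shZDHHC8 and 0.30 in shControl cells. The call in shZDHHC8 cells ended without shZDHHC8 vehicle replicate 2 (-0.24) or shZDHHC8 cisplatin replicate 2 (-0.27). ME1 was also higher with the knockdown in vehicle by 0.29, or 0.24 and not called without shControl vehicle replicate 1.

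CAT, catalase, which splits hydrogen peroxide in peroxisomes, was at 17.0 and 15.2 FPKM in shZDHHC8 cells with cisplatin and 21.1 and 19.9 with vehicle, against 11.2 and 10.4 in shControl cells with cisplatin and 21.4 and 20.7 with vehicle. In vehicle the shRNA groups overlapped, and under the drug every shZDHHC8 library lay above every shControl library (0.54, limma adjusted p = 0.00018). With the drug CAT fell by 0.33 in shZDHHC8 and by 0.90 in shControl cells. Between the shRNA groups SOD1, the cytosolic superoxide dismutase, had the same form. It was at 199.6 and 199.5 FPKM in shZDHHC8 cells with cisplatin and 180.4 and 189 with vehicle, against 143 and 135 in shControl cells with cisplatin and 183 and 171 with vehicle. Unlike CAT, SOD1 fell with the drug in shControl cells alone, by 0.34, and was not called in shZDHHC8 cells (0.11).

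**Figure D5:**
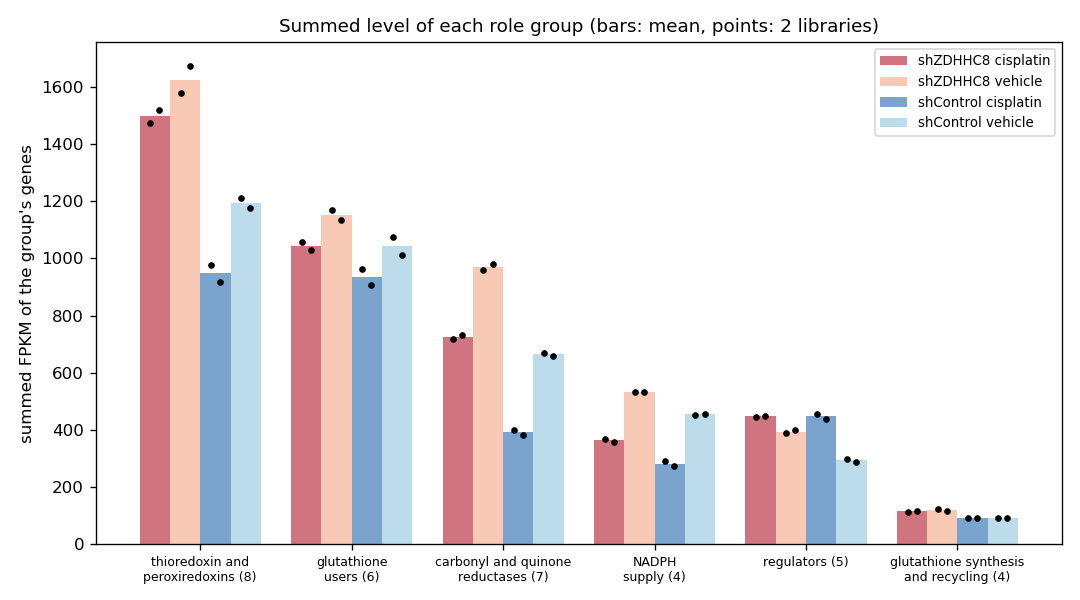
Summed FPKM of the genes of 6 role groups in each library, with bars at the mean of 2 libraries and points at the libraries. The carbonyl and quinone reductases sum to 718 and 733 FPKM in shZDHHC8 cells with cisplatin and 961 and 979 with vehicle, against 400.2 and 383 in shControl cells with cisplatin and 669.8 and 659.7 with vehicle.

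Summed over the 39 genes, the level was 4495 and 4528 FPKM in shZDHHC8 cells with cisplatin and 5042 and 5134 with vehicle, against 3396 and 3215 in shControl cells with cisplatin and 4084 and 3959 with vehicle. As a share of each column total this was 1.15% and 1.17% in shZDHHC8 cells with cisplatin and 1.31% and 1.33% with vehicle, against 0.924% and 0.891% in shControl cells with cisplatin and 1.10% and 1.09% with vehicle. The groups did not overlap. The sum is dominated by a few abundant genes such as PRDX1 and GSTP1 and is given as a description. The plot of summed levels by role gives for the 5 regulators 446.5 and 449.8 FPKM in shZDHHC8 cells with cisplatin and 388.5 and 401.1 with vehicle, against 456.4 and 439.9 in shControl cells with cisplatin and 300.0 and 287.6 with vehicle, the lowest group for these genes.

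Whether the knockdown altered the response to cisplatin was tested as the interaction, the log2 change with cisplatin in shZDHHC8 cells minus that in shControl cells. It passed for 19 of the 39 genes, 11 positive and 8 negative (limma adjusted p below 0.05), where 30.4% of all tested genes were called, 17.0% positive and 13.4% negative. The counts were 11 and 8 under both other scalings too, against 12.7% and 18.9% of all genes under median of ratios. ZDHHC8 itself was lower with the knockdown by 0.49 under cisplatin and by 0.92 in vehicle. Its interaction of 0.43 was not called (limma adjusted p = 0.111), and the part of the knockdown's depth in these results was not tested. Of the 11 positive ones, 10 were enzymes that fell with the drug in shControl cells and fell less or were not called in shZDHHC8 cells, and PRDX2 was called higher in shZDHHC8 cells alone. Among them were UGT1A6 (1.32 ± 0.19 (SE), limma adjusted p = 0.00157), AKR1C3 (0.96 ± 0.10, limma adjusted p = 0.000418), AKR1C1 (0.93 ± 0.088, limma adjusted p = 0.000254), EPHX1 (0.64), CAT (0.57) and PRDX1 (0.54). The value of AKR1C2, 0.57, was 0.86 with a pseudocount of 0.1. The negative ones were led by SQSTM1 (-0.67 ± 0.074, limma adjusted p = 0.000516), MAFK (-0.55), OSGIN1 (-0.50) and TXNRD1 (-0.48), which rose with the drug in shControl cells. The change in shControl cells is subtracted in the interaction. Positive values for genes that fell there and negative values for genes that rose there are therefore partly built in. Calls that ended when a library was left out were those of PRDX2 (0.26 without shZDHHC8 cisplatin replicate 1), TXN (-0.28 to -0.27 without shControl vehicle 2, shZDHHC8 vehicle 2, shControl cisplatin 1 or shZDHHC8 cisplatin 1), GSS and MAFG. GSS was at -0.29 to -0.23 without shControl vehicle 2, shZDHHC8 vehicle 2, shControl cisplatin 1 or 2, or shZDHHC8 cisplatin 1. MAFG was at -0.27 to -0.20 without any library but shZDHHC8 vehicle 2.

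Other genes of the pathway came from a list of 77, of which 73 were in the table and 62 were tested. This list too was chosen with earlier results of these data known, so its shares are given as a description. With the knockdown, 41 of the 62 were higher and 8 lower under cisplatin, 66.1% and 12.9% against 33.8% and 27.6% of all tested genes. In vehicle 29 were higher and 9 lower, 46.8% and 14.5% against 26.7% and 25.0% of all tested genes. With cisplatin, 17 rose and 16 fell in shZDHHC8 cells, 27.4% and 25.8% against 36.9% and 13.6% of all tested genes. In shControl cells 15 rose and 31 fell, against 36.8% and 25.4% of all tested genes. HMOX1, heme oxygenase and a classical NRF2 target, was among the lower ones, at 9.33 and 9.32 FPKM in shZDHHC8 cells with cisplatin and 11.4 and 10.6 with vehicle, against 14.5 and 15.7 in shControl cells with cisplatin and 18.9 and 19.6 with vehicle. Its log2 change with the knockdown was -0.64 under cisplatin and -0.75 in vehicle (limma adjusted p = 4.27e-05 and 2.52e-05). SLC7A11, which imports the cystine for glutathione, averaged 30.2 ± 0.988 and 34.9 ± 1.75 FPKM in shZDHHC8 cells with cisplatin and with vehicle, against 17.1 ± 0.569 and 24.3 ± 1.81 FPKM in shControl cells with cisplatin and with vehicle.

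The largest called changes in that list were in the following genes. With the knockdown under cisplatin they were TRIM16L (1.39), SOD3, the extracellular superoxide dismutase (1.33), and AKR1B10 (1.22), an aldo-keto reductase that is low throughout, at 1.40 ± 0.404 FPKM in shZDHHC8 and 0.0238 ± 0.0337 FPKM in shControl cells with cisplatin. With the knockdown in vehicle they were GLRX, glutaredoxin (1.28), the stress protein gene SESN2 (1.19) and TRIM16L (0.99). With cisplatin in shZDHHC8 cells they were MSRA, a methionine sulfoxide reductase (-1.32), the small MAF gene MAFF (1.16) and ALDH3A1, an aldehyde dehydrogenase (-1.04). With cisplatin in shControl cells they were ALDH3A1 (-1.99), MAFF (1.80) and SESN2 (1.36). MAFF was lower with the knockdown, with a log2 change of -0.93 under cisplatin and -0.30 in vehicle.

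Among the 39 genes, 17 overlap another listed gene in the deposited coordinates, 8 of them on the same strand, and whether the counting used strand is not given in the sources used here. Values of NFE2L2, KEAP1, MAFG, MAFK, SQSTM1, TXNRD1, PRDX1, PRDX2, PRDX6, GCLC, GSS, AKR1C2, CBR1, EPHX1, UGT1A6, SOD1 and OSGIN1 are to that extent uncertain.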

How the data were processed

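The authors deposited 1 table of normalized values for 8 libraries on hg38, per the submitters' processing notes; the values the authors deposited were taken as FPKM, since they are not whole numbers and sum to different totals. Aligner, quantifier and annotation: not given in the sources used here; per the labels' protocols poly(A) RNA was sequenced and every library carries the same batch label. No shared step was found between low values of replicate libraries (at most 5 of 3096 to 3363 genes below 0.3 FPKM shared a ratio), so the depth is unknown and precision comes from replicates. A gene was kept when 2 or more libraries had 1 FPKM or more (13495 of 21123); these were tested on log2(FPKM + 1), a scale that understates changes of low genes, with limma 3.58.1 in R 4.3.3: 1 mean per group over 8 libraries, eBayes with an intensity trend, and Benjamini-Hochberg adjustment over all tested genes in each of 5 comparisons. The method was tested on simulated data. Nothing says that replicates came from separate cultures, so p-values cover the spread between these libraries only. The 39 genes and all lists were chosen with earlier results of these data known. Genes given library by library were the regulators and those called with an absolute log2 change of at least 0.8 in a comparison between groups, and SOD1, added after its values were seen; of the other pathway genes, HMOX1, SLC7A11 and the 3 largest called changes of each comparison were named, and 1 other gene of that rule is not reported here. The alternatives were another pseudocount (0.1), no filter, other scalings, no intensity trend, 4 libraries alone, a replicate block and each library left out.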

Additional observations from a re-analysis of the deposited data

Results flagged for a closer look

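The response to cisplatin differed between shZDHHC8 and shControl cells for 19 of the 39 genes by the test of the difference itself (limma interaction, adjusted p below 0.05), where 17.0% of all tested genes had a positive and 13.4% a negative one. Positive values, with the cisplatin change higher in shZDHHC8 cells, were found for UGT1A6 (1.32), AKR1C3 (0.96), AKR1C1 (0.93), EPHX1 (0.64), AKR1C2 (0.57), CAT (0.57), PRDX1 (0.54), SOD1 (0.46), AKR1B1 (0.40), PRDX2 (0.32) and CBR1 (0.30), all on the log2 scale. Negative values were found for SQSTM1 (-0.67), MAFK (-0.55), OSGIN1 (-0.50), TXNRD1 (-0.48), SRXN1 (-0.43), TXN (-0.32), GSS (-0.28) and MAFG (-0.24).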

How the results depend on the processing

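Of 130 calls over the 5 comparisons, none changed sign under any alternative, 110 held under every alternative run and 20 were lost under at least 1, 12 of them under an alternative other than leaving out a library. Calls of GSTP1, PRDX5, PRDX3, GSTM3 and MAFG were among those lost most often. Changes that were not called crossed 0 in 69 cases, over 74 combinations of comparison and alternative. Median-of-ratios scaling left 3 of the 6 rises with cisplatin in shZDHHC8 cells. Under cisplatin, 7 genes in place of 2 were lower with the knockdown after scaling to a common total and 7 by median of ratios. In vehicle 1 in place of 2 was lower with no filter on low values and 1 with no intensity trend. With each library left out in turn, the knockdown falls numbered 1 to 2 in vehicle and 1 to 3 under cisplatin, and negative interactions 5 to 7 in place of 8. The causes of these moves were not tested. The replicate numbers did not pair the libraries (correlations of deviations of -0.0515 to 0.0198 between groups), and a replicate block gave 28, 22, 30, 31 and 18 calls for the drug in shControl cells, the drug in shZDHHC8 cells, the knockdown in vehicle, the knockdown with the drug and the interaction, against 28, 23, 30, 30 and 19 without it. With 2 libraries a group and no depth, changes near the median SE of 0.0792 (0.112 for the interaction) could not be told from the spread.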

Other observations

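Among the other pathway genes, the largest called interactions were those of TXNIP, which binds and inhibits thioredoxin, ALDH3A1 and HTATIP2. TXNIP was at 160.1 and 161.7 FPKM in shZDHHC8 cells with cisplatin and 135 and 151 with vehicle, against 279 and 269 in shControl cells with cisplatin and 109.5 and 109.2 with vehicle (interaction -1.15, limma adjusted p = 8.29e-05). HTATIP2, an oxidoreductase, was at 11.8 in both libraries of shZDHHC8 cells with cisplatin and 9.12 and 9.79 FPKM with vehicle, against 5.52 and 4.44 FPKM in shControl cells with cisplatin and 7.74 and 8.35 with vehicle (interaction 0.90, limma adjusted p = 0.00151). ALDH3A1 was low, at 0.706 ± 0.0444 and 2.51 ± 0.0832 FPKM in shZDHHC8 cells with cisplatin and with vehicle, against 0.272 ± 0.0707 and 4.04 ± 0.258 FPKM in shControl cells with cisplatin and with vehicle (SD, n = 2 libraries each; interaction 0.95, limma adjusted p = 0.00142).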
